A study of Mus musculus with 12 samples.

Results

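Heavy chain variable segments are the gene segments that encode most of the antigen-binding part of an antibody heavy chain, and 114 of the 41128 genes in the expression table carry a name that starts with Ighv. All 114 were taken, and the number after Ighv in the name was read as the family, which gave 16 families. The table holds 12 RNA sequencing libraries in 4 groups of 3, made from C57BL/6J mice whose spleens were taken at 6 to 8 weeks of age. The groups were resting CD43- B cells of females, resting CD43- B cells of males, naive CD4+ CD62L+ T cells of females and naive CD4+ CD62L+ T cells of males. The mice carried no treatment or engineered allele in the labels. The T cells had been sorted further by flow cytometry, and CD43, the protein the B cells were chosen to lack, is carried by most B-1 cells and plasma cells. Each replicate pooled several mice, so errors below describe pools. The label codes carry a number that differs between the sexes within each cell type and whose meaning is not stated, so sex and that number cannot be told apart.

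In a developing B cell the Rag1 and Rag2 recombinase cuts beside a single variable segment and beside a diversity segment already joined to a joining segment, the DNA between them is removed, and the joined exon is then transcribed together with the constant exons of Ighm. Each mature B cell therefore carries its own choice of segment, and the level of a segment in a population of B cells reflects how many cells use it and how much heavy chain RNA each of them makes. In bulk RNA fewer cells using a segment and less RNA per cell cannot be told apart. T cells rearrange the T cell receptor genes in place of the heavy chain variable segments. Family 1, known as J558, is the largest family in the mouse, and families 2 and 5 lie nearest to the diversity segments.

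The identifier, transcript and symbol of 101 segments matched GENCODE M21, an annotation of the build GRCm38 (mm10). These 101 lay on the minus strand of chromosome 12 between 113574245 and 116000461, and the Ighm constant exons lay at 113418558 to 113422730. Of the 101, 100 were annotated as variable genes and 1, Ighv2-1, as a pseudogene. The other 13, among them Ighv8-8, did not match in all fields and are described without a position or a sequence. Each segment with a coding model was a leader exon followed by a variable exon, or, in 27 of 100 models, a variable exon alone.

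The coding sequences show how alike the segments are, which bears on every level below because a short read can match several of them. Over the last 300 coding bases, 1204 pairs of segments of the same family had a median identity of 85.7%, and 3746 pairs of different families a median of 65.3%. The nearest neighbour of 96 of 100 segments was in its own family, and the median identity to it was 95%. The other 4 were Ighv4-1, Ighv12-3, Ighv15-2 and Ighv16-1, each the sole member of its family in this set. The most abundant segment, Ighv1-26, is shown with its nearest neighbour, Ighv1-22, because the 2 differ by only 11 bases over this stretch, given in capitals. The stretches are coding-strand sequence from the GENCODE M21 transcripts, written 5′ to 3′, from the minus strand of chr12:114788372-114788671 and chr12:114746273-114746572 in GRCm38.
Ighv1-26: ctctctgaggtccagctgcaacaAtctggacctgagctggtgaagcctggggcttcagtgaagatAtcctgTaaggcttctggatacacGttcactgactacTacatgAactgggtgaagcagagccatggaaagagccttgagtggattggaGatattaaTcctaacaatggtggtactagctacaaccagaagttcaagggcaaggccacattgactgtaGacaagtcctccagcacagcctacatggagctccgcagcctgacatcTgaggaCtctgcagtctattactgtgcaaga
Ighv1-22: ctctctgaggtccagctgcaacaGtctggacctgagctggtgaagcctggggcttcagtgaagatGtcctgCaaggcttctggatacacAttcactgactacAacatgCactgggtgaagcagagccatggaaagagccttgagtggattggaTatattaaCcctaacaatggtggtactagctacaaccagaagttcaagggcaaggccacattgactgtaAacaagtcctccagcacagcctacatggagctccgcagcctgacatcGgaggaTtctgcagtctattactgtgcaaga

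The 3′ end of a variable segment encodes a conserved cysteine just before the join to the diversity segment, and 8 ends are shown. They are those of the highest members of families 1, 3, 5, 6, 9 and 10, and of Ighv8-13 and Ighv8-9, because Ighv8-9 lacks the motif searched. The motif searched was TANTNNTGN, on the coding strand of the last 60 coding bases. It reads as a codon starting with TA, as tyrosine codons do, a codon starting with T and a codon starting with TG. It was present in 95 of 100 segments, with TGT as its last codon in 94 and TGC in 1, Ighv6-3. Capitals mark that last codon, and the stretch of Ighv8-9 has none because the motif was absent.
Ighv1-26: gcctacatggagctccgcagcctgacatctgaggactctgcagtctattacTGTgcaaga
Ighv6-3: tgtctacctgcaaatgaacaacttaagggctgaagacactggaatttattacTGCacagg
Ighv3-6: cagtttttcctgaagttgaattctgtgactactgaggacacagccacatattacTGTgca
Ighv9-3: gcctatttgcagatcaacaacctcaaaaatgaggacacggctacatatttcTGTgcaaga
Ighv5-17: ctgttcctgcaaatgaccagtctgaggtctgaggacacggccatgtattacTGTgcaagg
Ighv10-1: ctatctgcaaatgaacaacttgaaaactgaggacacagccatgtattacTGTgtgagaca
Ighv8-13: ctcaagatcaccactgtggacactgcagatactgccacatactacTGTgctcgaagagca
Ighv8-9: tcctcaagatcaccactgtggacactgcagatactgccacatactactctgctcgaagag
These ends lie on the minus strand of GRCm38 chromosome 12, at 114788372 to 114788431 for Ighv1-26, 114391712 to 114391771 for Ighv6-3, 114288157 to 114288216 for Ighv3-6 and 114140692 to 114140751 for Ighv9-3. Those of Ighv5-17, Ighv10-1, Ighv8-13 and Ighv8-9 lie at 113859149 to 113859208, 114479005 to 114479064, 115765333 to 115765392 and 115468332 to 115468391. The motif was present in 78 of 81 segments with a B cell mean of at least 1 and in 17 of 19 below 1. Ighv8-9, whose coding sequence was 98% identical to that of Ighv8-13, had an adjusted TPM between 0.0794 and 0.177 in B cells, and Ighv8-13 had one between 0.0253 and 0.130. The segments at very low levels thus mostly had the motif. The closing bases TGTGCAAGA were shared by 44 of 100 segments, 42 of them in family 1, of whose 47 sequences they ended all but 5.

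Levels are given as the authors' adjusted TPM. TPM is a length-corrected share of transcripts, and how it was adjusted is not stated. Comparing levels between segments therefore assumes that the adjusted values keep the length correction. The totals over all genes ran from 561020 in female B 3 to 1453940 in male T 6. The depth of each library is unknown, and the precision was read from the lower and upper bounds deposited with each value, whose level is not stated. The labelled cell types held for their markers: the 5 B cell markers were all higher in B cells, with Cd79a at 417 to 573 in B and 0.571 to 1.58 in T cells, and Cd3e was at 0.0156 to 0.0790 in B and 62.3 to 76.6 in T cells.

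Variable segments were a B cell signal. Their summed level was 1019 ± 106 adjusted TPM in B cells and 4.99 ± 0.749 in T cells (SD, n = 6 each), a 205-fold difference between geometric means. In females the B cell libraries held 946, 937 and 982, and in males 1176, 942 and 1128. The T cell libraries held 4.57, 4.75 and 4.85 in females and 5.22, 4.20 and 6.36 in males. The cell types did not overlap, and an exact two-sided permutation test gave p = 0.0022, the smallest p that 6 against 6 libraries allow. The T cell sum was made of imprecise values. Of its 684 single values 43 reached 0.1, only 1 had a lower bound above 0.1, and upper bounds were a median of 166 times the lower bounds, against 1.54 times for the 85 segments that passed the filter in B cells. With the lower bounds summed in place of the estimates the B minus T difference was 11.3 on the log2 scale, and with the upper bounds it was 6.01, against 7.68 for the estimates.

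**Figure D1:**
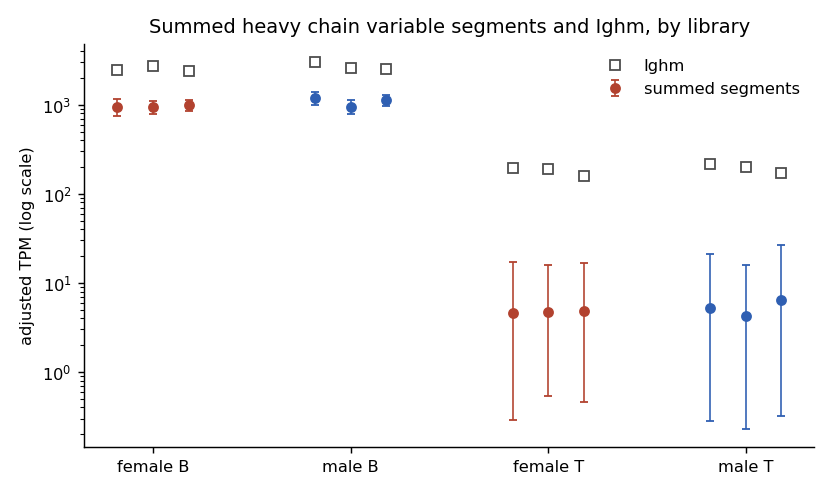
Summed adjusted TPM of the 114 heavy chain variable segments (filled circles) and of Ighm (open squares) in each library, on a log axis. Bars join the summed lower and summed upper bounds deposited with the values; the B cell sums lie between 937 and 1176 and the T cell sums between 4.20 and 6.36.

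Ighm, the constant region of IgM that these segments are joined to, behaved differently in T cells. It stood at 2408 to 2996 in B cells and at 157 to 215 in T cells, 3.79 ± 0.094 higher in B cells on the log2(adjusted TPM + 1) scale (± SE, limma, adjusted over all genes). For each 100 units of Ighm the segments summed to 38.98 ± 3.52 in B cells and to 2.69 ± 0.592 in T cells (SD, n = 6 each). The T cell libraries thus held Ighm signal with few variable segments beside it. Igkc, the kappa light chain constant region, was at 883 to 1181 in B cells and at 0.163 to 1.85 in T cells. Markers of B cells summed to between 0.900 and 5.34 in the T cell libraries, and their part in the T cell values was not tested.

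Segment by segment, 105 of the 114 had every B cell library above every T cell library, against 15.5% of all genes in the table (24.2% of the 12520 genes past the filter). The other 9 were Ighv1-24, Ighv1-30, Ighv1-73, Ighv2-1, Ighv6-4, Ighv8-13, Ighv8-14, Ighv13-1 and Ighv16-1, each with a mean at or below 0.0750 in both cell types. Only Ighv1-24 and Ighv8-14 had a higher mean in T than in B cells, at 0.00487 against 0.00250 and at 0.00202 against 0.00188, values with no precision. For Ighv1-24 every T cell library lay above every B cell library, at 0.00410 to 0.00575 against 0.00160 to 0.00352, and the other 8 overlapped. The filter of 1 in at least 3 libraries was passed by 85 segments, all through their B cell values, so they had to differ. The other 20 of the 105 fell short of it, and some of them also had values with no precision. For Ighv7-2, at 0.0116 to 0.0157 in B and 0.00534 to 0.00728 in T cells, the upper bounds in B cells were a median of 1623 times the lower bounds. All 85 were higher in B cells by limma at an adjusted p under 0.05, where 31.4% of all tested genes were, and their log2 differences ran from 0.90 to 6.18 with a median of 3.09, against a median of −0.09 over all tested genes. For Ighv1-26 the difference was 6.18 ± 0.076 (± SE) with an adjusted p of 9.03e-16.

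The highest T cell means belonged to Ighv1-2, Ighv5-17 and Ighv9-3. Ighv1-2 was at 0.119, 0.118 and 0.124 in female and at 0.205, 0.153 and 0.245 in male T cells. Ighv5-17 was at 0.142, 0.247 and 0.123 in female and at 0.181, 0.0617 and 0.119 in male T cells. Ighv9-3 was at 0.0429, 0.0314 and 0.0370 in female and at 0.335, 0.135 and 0.196 in male T cells. All of these lie far under 1. The highest single T cell value of any segment was 0.432, for Ighv8-8 in male T 6. The 20 diversity and 4 joining segments of the locus in the table, which are much shorter, did not exceed 0.114 in any of the 12 libraries, B cells included.

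Within B cells, use of the array was broad with a single segment standing out. Means over the 6 libraries ran from 0.000217 for Ighv13-1 to 79.2 for Ighv1-26, with a median of 5.57. An adjusted TPM of at least 1 was reached in every B cell library by 81 segments, 24 stayed below 1 in all 6, and 9 lay on both sides. A mean of at least 10 was found for 37 segments and of at least 20 for 16. The 10 highest segments made up 33.6% of the summed level, and 18 were needed for 50% of it. At the threshold of the filter, Ighv3-3 passed with 3 libraries at 1 or more and a mean of 0.993, and Ighv2-6-8 did not pass, with 2 such libraries and a mean of 1.07.

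Ighv1-26 (ENSMUSG00000094546.1) was the highest segment in all 6 B cell libraries. It was at 74.3, 67.7 and 74.1 in females and at 98.1, 74.1 and 87.2 in males, and made up 7.76% ± 0.370 of the summed level (SD, n = 6). Its lowest library was above the highest value of any other segment in B cells. The next 4 segments were Ighv6-3, Ighv3-6, Ighv8-8 and Ighv9-3, each from another family. Ighv6-3 was at 34.1, 28.8 and 29.9 in females and at 37.7, 27.6 and 34.7 in males. Ighv3-6 was at 29.5, 31.2 and 27.5 in females and at 39.8, 27.5 and 34.7 in males. Ighv8-8 was at 30.1, 32.3 and 29.8 in females and at 35.2, 27.5 and 31.0 in males. These 3 overlapped throughout, and their order lies within the spread between libraries. Ighv9-3 was at 26.3, 27.2 and 28.3 in females and at 38.8, 28.2 and 33.3 in males. The remaining 5 of the top 10 were Ighv1-64, Ighv1-55, Ighv1-53, Ighv1-72 and Ighv5-17, with means between 26.9 and 28.3, SDs between 2.97 and 4.99, and no separation from each other. In the plot of the 10 highest segments male B 1 is the highest library for 9 of them.

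**Figure D2:**
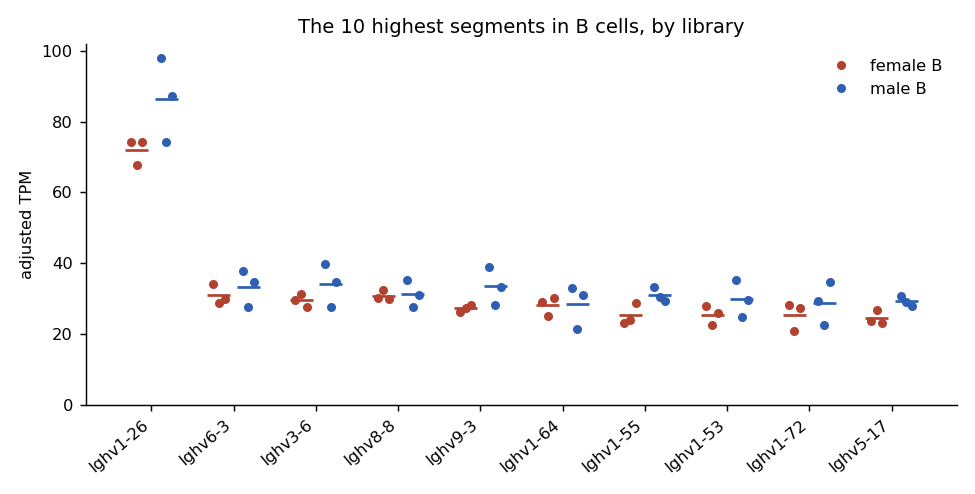
Adjusted TPM of the 10 segments with the highest mean in B cells, 1 point per library, with a line at the mean of each sex (n = 3). Ighv1-26 lies between 67.7 and 98.1, and the other 9 segments lie between 20.9 and 39.8.

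Family 1 held the largest share of B cell signal. Its 55 segments, 48.2% of all, made up 54.7% ± 1.14 (SD, n = 6) of the summed level, with 53.2% as the lowest and 56.3% as the highest library. The family was uneven inside: 40 members were at 1 or more in all 6 libraries and 11 were below 1 in all of them, and the family median was 6.65. Family 5 came next with 8.20% ± 0.671, and all 9 of its members were at 1 or more in every B cell library. Its highest member was Ighv5-17, at 23.7, 26.8 and 23.2 in females and 30.7, 29.1 and 28.0 in males.

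Several other families rested mostly on 1 segment, and families 2 and 14 did so less. In families 3, 6, 7, 8 and 9 the highest member (Ighv3-6, Ighv6-3, Ighv7-3, Ighv8-8 and Ighv9-3) carried between 61.1% and 68.6% of the family's level. In family 2 (5.71% ± 0.247 of the summed level) the highest, Ighv2-2, carried 42.8%, and in family 14 (3.62% ± 0.230) Ighv14-3 carried 37.3%. The median member of family 8 was at 0.288, and 5 of its 9 members stayed under 1 in all B cell libraries. Family 10 has only Ighv10-1 and Ighv10-3 in the table and made up 3.44% ± 0.161, with Ighv10-1 at 17.7, 18.4 and 23.0 in females and 25.9, 19.9 and 21.6 in males.

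Families 4, 11, 12, 13, 15 and 16, each with 1 or 2 members, held small shares. Ighv4-1 had a mean of 11.9 ± 3.24 (SD, n = 6). The entry named Ighv13-2 had a mean of 6.38 ± 1.19 (SD, n = 6), but its gene identifier is that of Ighv6-7 in GENCODE M21, so which segment the value belongs to is uncertain. Ighv15-2 had a mean of 1.99 ± 0.412 (SD, n = 6). Ighv16-1 was at 0.00517 to 0.00793 in B and 0.00344 to 0.00666 in T cells, so it was not detectable at this precision. The entry named Ighv13-1, whose gene identifier is that of Ighv13-2 in GENCODE M21, was also near 0, so the level of family 13 is uncertain.

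**Figure D3:**
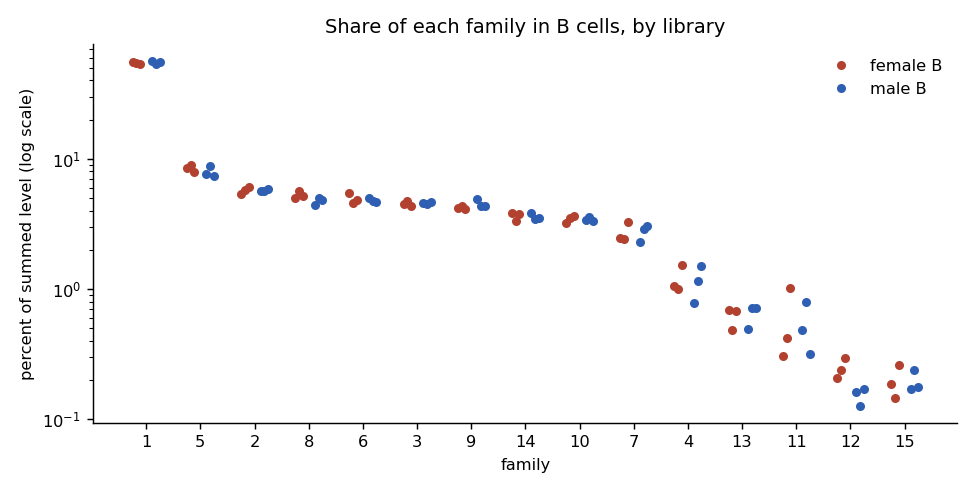
Percent of the summed level of all segments that each family made up in each B cell library, on a log axis, ordered by mean share; family 16 is below the axis and not drawn. Family 1 lies between 53.2% and 56.3%, and family 11 spreads most, from 0.303% to 1.02%.

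Along the locus, segments of high and of low level lay in every part. The 101 segments with a position span 2426 kb and were ordered from the end next to the constant region and split into 4 groups of 25 or 26. From that end outwards the median levels were 5.06, 5.84, 6.26 and 6.95, and the shares of the summed level were 18.1% ± 0.958, 23.8% ± 0.680, 29.2% ± 0.935 and 23.4% ± 0.857 (SD, n = 6). The first group, Ighv2-1 to Ighv14-2, had no member of family 1, and the 2 outer groups had 23 and 21. Spearman's rho between level and distance was 0.0888 over the 101 segments and 0.0831 over the 47 of family 1, given as a description of points that share libraries. Ighv5-2, the second segment from the constant end and known for its frequent use in fetal and newborn repertoires, was at 4.25, 3.36 and 2.47 in female and 2.00, 3.90 and 2.86 in male B cells. At the far end, 2426 kb away, Ighv1-85 had a mean of 6.95 ± 2.41 (SD, n = 6).

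**Figure D4:**
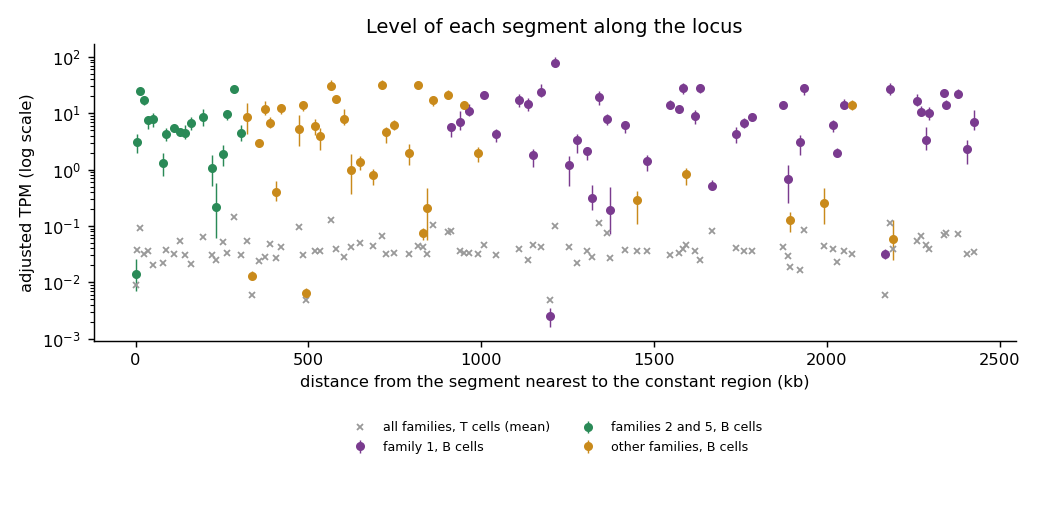
Level of the 101 positioned segments (log axis, adjusted TPM) against distance in kb from the segment nearest to the constant region. Circles are means over 6 B cell libraries with bars from the lowest to the highest library, colored by family, and crosses are means over 6 T cell libraries; group medians in B cells stay between 5.06 and 6.95 along the 2426 kb.

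Segments of nearly the same sequence often had very unlike levels, and these levels are uncertain, since reads from shared stretches cannot be assigned by sequence and how they were divided is not stated. Ighv1-71 and Ighv1-62-2 have the same 302 coding bases, yet Ighv1-71 was listed at 0.0263 to 0.0392 and Ighv1-62-2 at 12.5 to 16.2 in B cells. Ighv1-72 and Ighv1-62-3 were 99% identical, with means of 27.1 and 0.670. Ighv2-2 and Ighv2-4 were 98% identical, with means of 24.9 and 1.30. Ighv1-52 and Ighv1-61, 98.7% identical, were closer, with means of 12.02 and 8.44. In 7 pairs the identity was at least 98%. The gene models also went with the level: the 27 segments modelled without a leader exon had a median B cell level of 1.22, with 10 below 1 in every library, and the 73 with a leader exon had a median of 7.92, with 5 below 1 in every library.

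The pair Ighv11-2 and Ighv11-1 is shown because Ighv11-2 is known for its use by B-1 cells that bind phosphatidylcholine and the 4 bases in capitals are all that tell its last 300 coding bases from those of Ighv11-1. The stretches are coding-strand sequence of GENCODE M21 transcripts from the minus strand of chr12:114048241-114048540 and chr12:113981879-113982178 in GRCm38.
Ighv11-2: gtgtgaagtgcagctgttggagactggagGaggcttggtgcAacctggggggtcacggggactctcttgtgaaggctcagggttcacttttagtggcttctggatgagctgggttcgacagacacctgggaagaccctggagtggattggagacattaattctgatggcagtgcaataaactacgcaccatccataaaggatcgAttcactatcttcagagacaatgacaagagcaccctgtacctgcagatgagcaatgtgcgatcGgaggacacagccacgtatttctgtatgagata
Ighv11-1: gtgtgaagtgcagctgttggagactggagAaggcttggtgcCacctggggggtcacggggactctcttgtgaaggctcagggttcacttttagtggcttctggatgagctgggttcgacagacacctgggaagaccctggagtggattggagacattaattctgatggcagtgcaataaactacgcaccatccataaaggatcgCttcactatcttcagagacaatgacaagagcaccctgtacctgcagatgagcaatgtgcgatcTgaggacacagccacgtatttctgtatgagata
Ighv11-2 was at 2.59, 3.52 and 9.50 in female and at 5.02, 7.19 and 3.29 in male B cells, so that libraries of the same sex differed more than the sexes did. Ighv11-1 stayed between 0.275 and 0.631. Ighv12-3, the other segment known from such B-1 cells, was at 1.95, 2.23 and 2.89 in females and 1.90, 1.20 and 1.92 in males. Of the B-1 cell markers, Bhlhe41 was at 2.25 to 3.93 in B cells, Zbtb32 at 0.378 to 1.33, Cd5 at 0.503 to 1.09 and Spn, which encodes the CD43 protein, at 6.00 to 8.46. Spn and Cd5 were highest in female B 3 (8.46 and 1.09), as Ighv11-2 was, while Bhlhe41 was highest in female B 1 and Zbtb32 in female B 2. In male B 2, where Ighv11-2 was next highest, Cd5 was at its lowest B cell value (0.503) and Spn was at 6.80. The part of these markers in the Ighv11-2 values was not tested.

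The spread between pools is given next, with no test. The SD within sex of log2(adjusted TPM + 1) over the B cell libraries had a median of 0.22 over the 85 segments past the filter and of 0.13 over all tested genes. The 5 segments with the largest SD were Ighv7-1 (0.71), Ighv11-2 (0.66), Ighv1-77 (0.41), Ighv1-85 (0.41) and Ighv1-84 (0.39). Their upper bounds in B cells were, in this order, a median of 1.71, 1.78, 2.05, 1.66 and 2.37 times the lower bounds, against 1.54 over the 85 segments. The part of this imprecision in the spread was not tested. Ighv7-1 was at 4.78, 4.29 and 11.3 in females and at 4.89, 10.4 and 15.2 in males. Both sexes thus held a low and a high library for it. Ighv1-77 was at 3.41, 3.54 and 3.19 in females and at 5.66, 2.26 and 2.44 in males, and Ighv1-84 ranged from 1.24 to 3.37. Between any 2 B cell libraries the segment levels correlated with r of 0.948 to 0.968 within a sex and of 0.957 to 0.970 between the sexes, across the 85 segments, which are not independent replicates.

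The sexes were then compared within B cells. The summed level was 955 ± 23.8 in females and 1082 ± 124 in males (SD, n = 3 each), a log2 difference of −0.17 for females minus males. The sexes overlapped, since male B 2 at 942 lay among the females, and the exact two-sided permutation test gave p = 0.3, where 3 against 3 libraries cannot go below 0.1. Without male B 2 the difference was −0.27, over 1.5 times as large, and without male B 1 it was −0.11. Ighm, at 2443, 2753 and 2408 in females and 2996, 2566 and 2544 in males, also had its highest value in male B 1. The share of family 1 was 54.2% ± 0.998 in females and 55.3% ± 1.18 in males (SD, n = 3), a difference that an exact two-sided permutation test did not separate (p = 0.3).

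No segment passed the threshold between the sexes by limma at an adjusted p under 0.05, where 0.144% of all tested genes did. At an unadjusted p under 0.05 there were 21 of 85 segments (24.7%), 20 of them lower in females, against 2.98% of all tested genes. This fit draws its spread from all 12 libraries, and no segment exceeded 0.432 in T cells, so the segments vary little there. With the B cell libraries alone the count was 10 of 85 segments, against 436 of 12520 genes. Females were lower in 69 of the 85 and higher in 16, with a median log2 difference of −0.14 against −0.01 over all tested genes. The sexes did not overlap in 12 of the 85 segments (14.1%), against 7.2% of all tested genes in either direction. All segments were read from the same 6 libraries, so they do not count as separate observations of a sex difference. In the fit of both cell types, the count at an unadjusted p under 0.05 without male B 2 was 35 of 84 and the median −0.24. Without male B 1 they were 16 of 85 and −0.08. After scaling the libraries to one common total (1000000) they were 8 of 89 and −0.21, where the median over all genes was −0.07.

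The smallest p-values belonged to Ighv1-42, Ighv1-18, Ighv3-8, Ighv9-1 and Ighv1-55, all lower in females. Their SEs and p-values come from the fit over all 12 libraries, T cells included. In the limma fit of the B cell libraries alone the smallest adjusted p of any segment was 0.661. Ighv1-42 was at 6.09, 7.29 and 6.38 in females and at 9.49, 8.65 and 9.92 in males, a log2 difference of −0.45 ± 0.086 (± SE, limma, adjusted p = 0.103). Ighv1-18 was at 13.8, 16.1 and 13.0 in females and at 21.6, 18.3 and 21.02 in males, a log2 difference of −0.48 ± 0.094 (± SE, limma, adjusted p = 0.109). Neither pair of ranges overlapped. Ighv3-8 (adjusted p = 0.756) and Ighv1-55 (adjusted p = 0.913) did not overlap between the sexes either, while Ighv9-1 (adjusted p = 0.839) did. Ighv12-3 was the only segment of the 12 without overlap that was higher in females, by 0.33 ± 0.126 on the log2 scale (± SE, limma, adjusted p above 0.99 and unadjusted p = 0.0214).

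**Figure D5:**
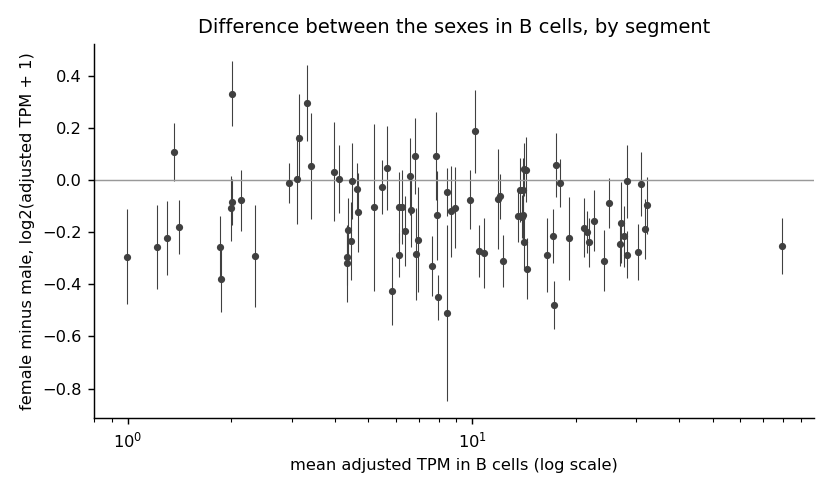
Female minus male difference in log2(adjusted TPM + 1) for each tested segment (± SE from limma) against its mean level in B cells on a log axis, in the authors' scaling. Of the 85 segments 69 lie below 0, and none passed an adjusted p of 0.05.

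The genes that act with the segments were described from a list of 39, of which 36 were in the table and 30 passed the filter. Of these, 21 were higher in B cells, 6 were higher in T cells and none differed between the sexes by limma at an adjusted p under 0.05. Among the 9 recombination genes, Rag1 was at 0.821 to 1.70 in B and 0.00397 to 0.0126 in T cells and Rag2 at 0.0121 to 0.0457 in B cells, both short of the filter. Dntt, the enzyme that adds untemplated bases at the joins, was at 0.00187 to 0.0112 in B and 6.50 to 7.96 in T cells. Dclre1c (Artemis) was higher in B cells, and Xrcc4 and Xrcc5 were, with Dntt, the 3 recombination genes higher in T cells.

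The partners of the mature heavy chain were also higher in B cells. Cd79a and Cd79b, the signalling chains of the receptor, and the light chain constant regions Igkc and Iglc2 were all higher in B cells, by 8.01 to 9.11 on the log2 scale. The surrogate light chain genes Vpreb1, Vpreb2 and Igll1, which pair with the heavy chain in precursor cells, stayed below 0.217 in every library. Of the heavy chain constant regions other than Ighm, Ighg1, Ighg2b, Ighg2c, Ighg3 and Igha were all higher in B cells, at up to 21.5 for Ighg2b, and Ighe did not pass the filter. Of 11 factors that bind variable promoters or the heavy chain enhancer, 9 were higher in B cells, among them Pou2af1 (177 to 235 against 3.30 to 4.37) and Pax5 (128 to 166 against at most 0.00218), and Ikzf1 and Yy1 were higher in T cells. Ung, a DNA repair enzyme, was higher in T cells.

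Genes listed as markers of other B cell states had the levels that follow in the B cell libraries. Their part in the segment values was not tested. The 5 plasma cell markers summed to between 159 and 243. Jchain (named Igj in the table) was at 50.7, 81.7 and 104 in females and 131, 110 and 110 in males. Irf4 was at 47.6 to 58.5, Sdc1 at 5.48 to 6.82 and Xbp1 at 43.7 to 57.3, with Xbp1 at 24.6 to 30.9 in T cells. Prdm1, at 0.521 to 0.932 in B and 1.31 to 1.96 in T cells, was the 1 of the 5 that was higher in T cells. The marginal zone list summed to between 267 and 398, mostly from Cr2 at 179 to 292, which was also counted as a follicular marker. Of its 4 genes 2, Cd9 and Dtx1, were higher in T cells. The immature list (Cd93, Rag1 and Vpreb3) summed to between 78.2 and 95.8, mostly from Vpreb3 at 69.5 to 89.0. The B-1 list summed to between 9.49 and 14.5, and of its 3 tested genes 2, Spn and Cd5, were higher in T cells. None of the tested marker genes reported here differed between the sexes in B cells by limma at an adjusted p under 0.05.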

How the data were processed

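RNA from spleen B and T cells was sequenced by the submitters from rRNA-depleted, stranded libraries with ERCC spike-ins, and their processing notes name mm10, Trim Galore, FastQC and STAR. Some label fields call the material genomic DNA, whereas the series and its protocol describe RNA. Per library, the authors deposited a signal called adjusted TPM with its lower and upper bounds for 41128 genes. RNA came from 1000000 cells per library. The quantifier, its handling of reads that match several segments, the adjustment and the interval level are not given in the sources used here. The values are not counts and none is 0, so depth is unknown.

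Groups came from the labels, in 4 groups of 3 libraries. Differences of log2(adjusted TPM + 1) were tested with limma 3.58.1 (R 4.3.3, mean-variance trend, group means over all 12 libraries) for 12520 genes with at least 1 in at least 3 libraries, with Benjamini-Hochberg adjustment over all of them and a threshold of 0.05. The pseudocount of 1 understates changes of low segments. Single values were compared by exact two-sided permutation tests (Python 3.11.15, numpy 2.4.6). Scripts were tested on simulated data. Identities are matching bases over the last 300 coding bases of GENCODE M21 transcripts, aligned globally with Biopython 1.88. Plots used matplotlib 3.10.9. Pou2f1 and Cr2 have more than 1 entry in the table, and the first was used.

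Segments named are the 10 highest in B cells, the highest of each family, the 5 with the largest spread within sex, the 5 smallest p-values between the sexes, the 3 highest in T cells, and Ighv5-2, Ighv11-2 and Ighv12-3; near-identical pairs, segments near the filter and those not higher in every B cell library were named after their values were seen. The members and gene lists were chosen with earlier results of these data known. Alternatives were 2 other scalings, a pseudocount of 0.1, no filter, a filter in at least 6 libraries, no trend, B cell libraries only, a replicate block, the deposited bounds, leaving out each library, and leaving out the annotated pseudogene. For the sexes, B cell libraries were also rescaled to the same summed segment level. Some genes of the lists are not reported here.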

Additional observations from a re-analysis of the deposited data

Results flagged for a closer look

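Among 36 sets of 6 libraries checked (the summed level in B and in T cells, the share of family 1, the named segments in B cells and the 3 highest of them in T cells), 1 held a library far from the others by Dixon's criterion. Chance alone flags about 1 in 20 sets that were not picked by their spread. The flagged segment, Ighv1-85, was among the 5 named for the largest spread in these same libraries, so that rate does not apply to it. Ighv1-85, the segment farthest from the constant region, was at 11.6 in male B 1 and between 5.04 and 7.29 in the other 5 B cell libraries, a gap that was 0.655 of the whole range. Male B 1 also held the highest summed level, at 1176.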

How the results depend on the processing

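The number of segments called between B and T cells, all higher in B cells unless stated, was 85 in the reported fit, between 84 and 85 when each library was left out, and 89, 86, 85, 110, 81 and 85 with a rescaling to a total of 1000000, median-ratio scaling, a pseudocount of 0.1, no filter (of 114, with 109 higher in B cells), a filter in at least 6 libraries and no trend. The rescaling to 1000000 moved the median B minus T difference of all tested genes from −0.09 to 0.26 (log2) and that of the segments from 3.09 to 3.45. The log2 difference of the summed level between B and T cells lay between 7.63 and 7.75 when each library was left out. Between the sexes no segment was called in any alternative except without a filter, which called 21 of 114 (6 of them higher in females) where it also called 10985 of 41128 genes; the cause was not tested. No pairing of the samples by replicate number was seen, though so few correlations cannot exclude it. The deviations of female and male B cell libraries with the same number correlated with r = −0.17, −0.04 and −0.34 over tested genes and with 0.155, 0.054 and 0.066 over tested segments. Those with different numbers ran from −0.25 to 0.39 over tested genes and from −0.24 to 0.16 over tested segments. With the numbers as a replicate block 0 segments were called, the smallest adjusted p was above 0.99, and 12 had an unadjusted p under 0.05, against 10 in the fit of the B cell libraries without the block. Rescaling the B cell libraries to the same summed segment level, which itself balances the signs of the segments, moved the median over all genes from −0.01 to 0.14 and called 0 segments. The female minus male difference of the summed level lay between −0.27 and −0.11, with exact permutation p between 0.1 and 0.4, when each B cell library was left out, and that of the family 1 share, in points of percent, lay between −1.71 and −0.536. The sign of the difference between the sexes turned in some alternatives for named segments, none of which was called. Depth is unknown, and the width of the deposited bounds limits every value under about 1.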
